A study of Arabidopsis thaliana with 12 samples.

Results

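The 10 genes described here are rapid stress genes of Arabidopsis thaliana, namely STZ (AT1G27730), AT5G51190, ERF5 (AT5G47230), ERF6 (AT4G17490), CAF1a (AT3G44260), SIB1 (AT3G56710), DIC2 (AT4G24570), AT4G27280, WRKY33 (AT2G38470) and WRKY40 (AT1G80840). They were listed by locus out of 33330 features in a table of RNA sequencing counts, and all 10 were among the 20232 genes that passed the filter on low counts. They were chosen by earlier results of the same libraries, on the difference of their heat response between genotypes. That difference (the genotype by heat interaction) and the 4 group differences it is made of are therefore given for them as a description, with no p-value, and no weight is put on counts of calls in them. Messenger RNA was measured in whole seedlings 6 days old, in 4 groups of 3 libraries. WT normal and hd2b hd2c normal seedlings were grown at 22 °C and carry a time of 0 h, while WT heat and hd2b hd2c heat seedlings were held at 44 °C for 3 h. HD2B and HD2C encode plant-specific histone deacetylases of the HD2 family. The alleles, the accession and the number of seedlings pooled per library are not given in any source used here. Because the normal groups were not held for a further 3 h at 22 °C, the effect of heat and that of elapsed time cannot be told apart.

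Plant cells answer touch, wounding, cold, heat, salt or a microbe within minutes by transcribing a shared set of short-lived messages. Calcium signals and mitogen-activated protein kinase cascades carry the stimulus, and calmodulin-binding CAMTA factors bind a short element in the promoters of many of these genes. Many of the first products are transcription factors that open or close later programmes, and others shape the response by removing the poly(A) tails of messages or by altering metabolism. STZ (also known as ZAT10) is a C2H2 zinc finger repressor of transcription with roles in salt, drought and light stress. AT5G51190 (known as ERF105), ERF5 and ERF6 are ethylene response factors of group IX, which bind GCC box sequences. WRKY33 and WRKY40 bind W-box sequences, the first promoting camalexin synthesis and defence against necrotrophic fungi and the other acting with its relatives as a repressor of defence genes. SIB1 is a VQ motif protein that binds WRKY33. CAF1a is a deadenylase of the CCR4-NOT complex, DIC2 a dicarboxylate carrier of the inner mitochondrial membrane, and AT4G27280 a small EF-hand calcium-binding protein.

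Promoters are shown for STZ, the most abundant of the 10 after heat, DIC2, whose heat response ran in opposite directions in the genotypes, and WRKY33, whose heat response differed least. Each is the 250 bases upstream of the annotated gene start in the TAIR10.1 genome of RefSeq, written 5′ to 3′ on the gene's strand. Capitals mark the GCC box (GCCGCC), the CAMTA-bound rapid stress element (CGCGTT) or a W-box (TTGACC or TTGACT), read on either strand, so that a match on the other strand appears as its reverse complement. The stretches lie at chr1:9649324-9649573 (minus strand) for STZ, chr4:12686209-12686458 (plus strand) for DIC2 and chr2:16107985-16108234 (plus strand) for WRKY33.
STZ: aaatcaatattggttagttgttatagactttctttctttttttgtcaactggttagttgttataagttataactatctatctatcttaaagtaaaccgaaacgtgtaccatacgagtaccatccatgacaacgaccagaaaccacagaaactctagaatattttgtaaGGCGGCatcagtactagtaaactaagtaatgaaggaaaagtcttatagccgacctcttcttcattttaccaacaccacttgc
DIC2: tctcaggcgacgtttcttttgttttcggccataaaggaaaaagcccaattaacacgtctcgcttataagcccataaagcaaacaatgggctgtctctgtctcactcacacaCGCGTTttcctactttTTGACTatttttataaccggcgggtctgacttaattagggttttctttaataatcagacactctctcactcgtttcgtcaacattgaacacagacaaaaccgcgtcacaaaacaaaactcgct
WRKY33: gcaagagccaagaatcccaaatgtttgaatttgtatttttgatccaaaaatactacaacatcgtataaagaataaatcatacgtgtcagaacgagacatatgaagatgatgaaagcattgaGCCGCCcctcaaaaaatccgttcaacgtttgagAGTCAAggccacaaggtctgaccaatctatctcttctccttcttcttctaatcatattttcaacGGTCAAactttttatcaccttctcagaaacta

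STZ had 1 GCC box, which began 82 bases upstream of its annotated start. DIC2 had 1 rapid stress element at 139 bases and 1 W-box at 123 bases. WRKY33 had W-boxes at 32 and 96 bases and a GCC box at 129 bases. Over the 10 promoters, a W-box of either form was found in 4 (AT5G51190, ERF5, DIC2 and WRKY33), against 28.45% of 26708 promoters of the same length. The GCC box was found in 2 of the 10 (STZ and WRKY33) and in 1.853% of all promoters, and the rapid stress element in 1 of the 10 (DIC2) and 2.595% of all. The heat shock element, searched as GAANNTTC, was found in 1 of the 10 (CAF1a, 8 bases upstream) and in 9.469% of all promoters. The G-box, CACGTG, was found in 0 of the 10 and in 6.582% of all. Windows of this length do not hold every regulatory element, and a match of letters is not a bound site. In that annotation 7 of the 10 genes have 1 exon, against 18.94% of 26709 protein-coding genes. The exceptions are SIB1 with 2 exons, WRKY40 with 4 and WRKY33 with 5.

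Total counts per library ranged from 7737285 to 24030931, and both extremes were hd2b hd2c heat libraries (replicates 2 and 1). Replicate 2 was unlike the rest: ribosomal RNA made up 11.2% of it, against 0.734% to 5.02% of the other 11 libraries, and its top 10 genes 34.1%, against 7.81% to 24.8%. Results that rest on it are given with and without it below. As a check of the labels, HD2B stood lower in hd2b hd2c, at 23.8 ± 2.76 CPM (counts per 1e6 scaled library counts; mean ± SD, n = 3) against 40.0 ± 3.00 in WT at normal temperature and 18.6 ± 4.75 against 85.8 ± 4.97 after heat. HD2C stood higher in hd2b hd2c, at 98.1 ± 6.97 against 37.3 ± 2.40 CPM and 324 ± 30.2 against 149 ± 4.69 CPM, so the transcripts were lower as labelled for HD2B only and the group is called by its label throughout. Seedling tissue markers were tested in the same fit, and all 10 changed in the average heat effect, 8 higher and 2 lower (34.3% and 40.2% of all genes tested). These directions rest on the scaling of the libraries. With library totals alone 1187 of all 20232 genes were called higher in this comparison and 16944 lower, and the markers were not followed there. In WT the xylem marker XCP1 went from 6.65 to 45.7 CPM, the phloem marker SUC2 from 26.6 to 104 CPM and the root hair marker PRP3 from 7.11 to 0.845 CPM (group means). In the average genotype effect and in the interaction, 0 of 10 passed with edgeR (1 each at an unadjusted p under 0.05) and 0 with DESeq2, and their median interaction was 0.24 (log2, from −1.49 to 0.57). The mesophyll marker CAB1 ranged from 58922 to 167138 CPM in hd2b hd2c heat and from 94024 to 140276 CPM in WT heat, and the part of tissue make-up in the results below was not tested. In whole seedlings, fewer cells of a type and less RNA per cell cannot be told apart.

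STZ held the widest range of the 10 genes. It stood at 2.24, 2.18 and 3.11 CPM in WT normal replicates 1 to 3 and at 165, 148 and 191 CPM in WT heat. In hd2b hd2c normal it stood at 11.3, 16.1 and 22.8 CPM, and in hd2b hd2c heat at 104, 165 and 87.4 CPM. Every hd2b hd2c normal library was thus above every WT normal library, and the groups after heat overlapped through hd2b hd2c heat replicate 2. Mean CPM was 66.8 times as high after heat in WT. The log2 fold change with heat was 6.05 (SE 0.314) in WT and 2.80 (SE 0.261) in hd2b hd2c, a difference of −3.25 (SE 0.382). The difference of hd2b hd2c from WT was 2.73 (SE 0.294) at normal temperature and −0.53 (SE 0.243) after heat.

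The ethylene response factors AT5G51190 and ERF6 had the same order of groups as STZ. AT5G51190 stood at 0.764, 0.516 and 1.80 CPM in WT normal and at 20.7, 23.2 and 23.2 CPM in WT heat. Its values were 6.05, 8.12 and 9.13 CPM in hd2b hd2c normal and 11.2, 16.2 and 14.0 CPM in hd2b hd2c heat, so that none of the 4 groups overlapped another. The log2 fold change with heat was 4.39 (SE 0.283) in WT and 0.78 (SE 0.239) in hd2b hd2c, and the difference of −3.61 (SE 0.370) was the most negative interaction of the 10 genes. The gene lies wholly inside AT5G51180 on the other strand, over all 965 of its exon bases, and the strand setting of the counting is not given in any source used here, so reads of the pair may not be told apart. AT5G51180 itself stood at 20.0 ± 2.21 CPM in WT normal, 28.5 ± 2.18 in WT heat, 21.9 ± 0.154 in hd2b hd2c normal and 32.2 ± 5.54 in hd2b hd2c heat (mean ± SD, n = 3), and so did not share the order of groups seen for AT5G51190.

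ERF6 stood at 3.51, 2.47 and 3.93 CPM in WT normal, 43.2, 46.4 and 51.5 CPM in WT heat, 7.45, 10.1 and 12.7 CPM in hd2b hd2c normal and 21.4, 41.2 and 24.6 CPM in hd2b hd2c heat. Again no group overlapped another, although hd2b hd2c heat replicate 2 came close to the WT heat libraries. The log2 fold change with heat was 3.80 (SE 0.232) in WT and 1.44 (SE 0.214) in hd2b hd2c. ERF5 moved least with heat in WT, from 4.03, 3.04 and 6.09 CPM to 10.1, 10.9 and 10.8 CPM. In hd2b hd2c it stood at 7.45, 9.29 and 15.4 CPM at normal temperature and at 7.17, 12.5 and 5.72 CPM after heat, and these groups overlapped each other and the WT heat group. The ERF5 log2 fold change with heat was 1.26 (SE 0.285) in WT and −0.49 (SE 0.290) in hd2b hd2c.

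CAF1a and DIC2 had, in hd2b hd2c at normal temperature, mean levels near or above those of WT after heat. CAF1a stood at 3.03, 5.16 and 7.68 CPM in WT normal, 28.5, 24.2 and 40.0 CPM in WT heat and 25.4, 34.2 and 32.1 CPM in hd2b hd2c normal. It stood at 17.7, 35.7 and 15.3 CPM in hd2b hd2c heat, where replicate 2 was above the unheated hd2b hd2c libraries and the others were below them. The hd2b hd2c normal mean was 99.0% of the WT heat mean. The CAF1a log2 fold change with heat was 2.56 (SE 0.352) in WT and −0.54 (SE 0.335) in hd2b hd2c.

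DIC2 stood at 3.53, 2.52 and 5.27 CPM in WT normal and at 10.1, 10.2 and 9.30 CPM in WT heat. In hd2b hd2c it stood at 13.5, 19.9 and 19.7 CPM at normal temperature and at 5.89, 7.93 and 4.97 CPM after heat. All 3 WT heat libraries were above the WT normal ones, and all 3 hd2b hd2c heat libraries were below the hd2b hd2c normal ones, which were the highest of all 12. The log2 fold change with heat was 1.36 (SE 0.235) in WT and −1.59 (SE 0.239) in hd2b hd2c, and the hd2b hd2c normal mean was 179% of the WT heat mean. With all libraries, DIC2 was the only gene of the 10 whose groups were separated in opposite directions by heat in WT and hd2b hd2c. Without hd2b hd2c heat replicate 2, ERF5 and CAF1a also lay fully below their unheated hd2b hd2c libraries.

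AT4G27280, the calcium-binding gene, followed STZ at higher starting levels. It stood at 6.01, 5.73 and 9.84 CPM in WT normal, 87.0, 84.6 and 91.0 CPM in WT heat, 21.4, 28.2 and 31.7 CPM in hd2b hd2c normal and 48.1, 79.0 and 44.6 CPM in hd2b hd2c heat. None of its 4 groups overlapped another, and within hd2b hd2c heat replicate 2 was the highest. The log2 fold change with heat was 3.60 (SE 0.225) in WT and 1.03 (SE 0.206) in hd2b hd2c, a difference of −2.56 (SE 0.297).

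SIB1 and the WRKY factors were the least abundant or the least altered of the set. SIB1 stood at 0.422, 0.401 and 0.177 CPM in WT normal, on 28 counts in all, and at 6.07, 8.21 and 7.37 CPM in WT heat. It stood at 1.47, 1.62 and 0.897 CPM in hd2b hd2c normal and at 4.86, 1.83 and 6.06 CPM in hd2b hd2c heat. All 4 groups were separate, by a margin of 0.01 CPM or less between the highest hd2b hd2c heat library and the lowest WT heat library. The SIB1 log2 fold change with heat was 4.41 (SE 0.412) in WT and 1.82 (SE 0.352) in hd2b hd2c.

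WRKY40 stood at 0.712, 0.860 and 0.212 CPM in WT normal, 8.76, 5.92 and 9.30 CPM in WT heat, 0.752, 1.94 and 5.23 CPM in hd2b hd2c normal and 5.28, 2.44 and 7.72 CPM in hd2b hd2c heat. The WT groups did not overlap, the hd2b hd2c groups overlapped each other, and hd2b hd2c normal replicate 3 was the highest of the unheated libraries. Its interaction of −2.70 had the largest standard error of the 10 genes, at 0.812. WRKY33 stood at 3.80, 5.50 and 5.77 CPM in WT normal, 38.8, 27.9 and 21.4 CPM in WT heat, 5.12, 5.35 and 9.53 CPM in hd2b hd2c normal and 26.4, 19.5 and 34.3 CPM in hd2b hd2c heat. The genotypes overlapped at both temperatures, and the log2 fold change with heat was 2.57 (SE 0.267) in WT and 2.04 (SE 0.260) in hd2b hd2c, a difference of −0.52 (SE 0.365). WRKY33 also overlaps AT2G38480 by 26 exon bases and a long non-coding RNA by 23, and WRKY40 overlaps AT1G80850 by 51, all on the other strand.

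**Figure D1:**
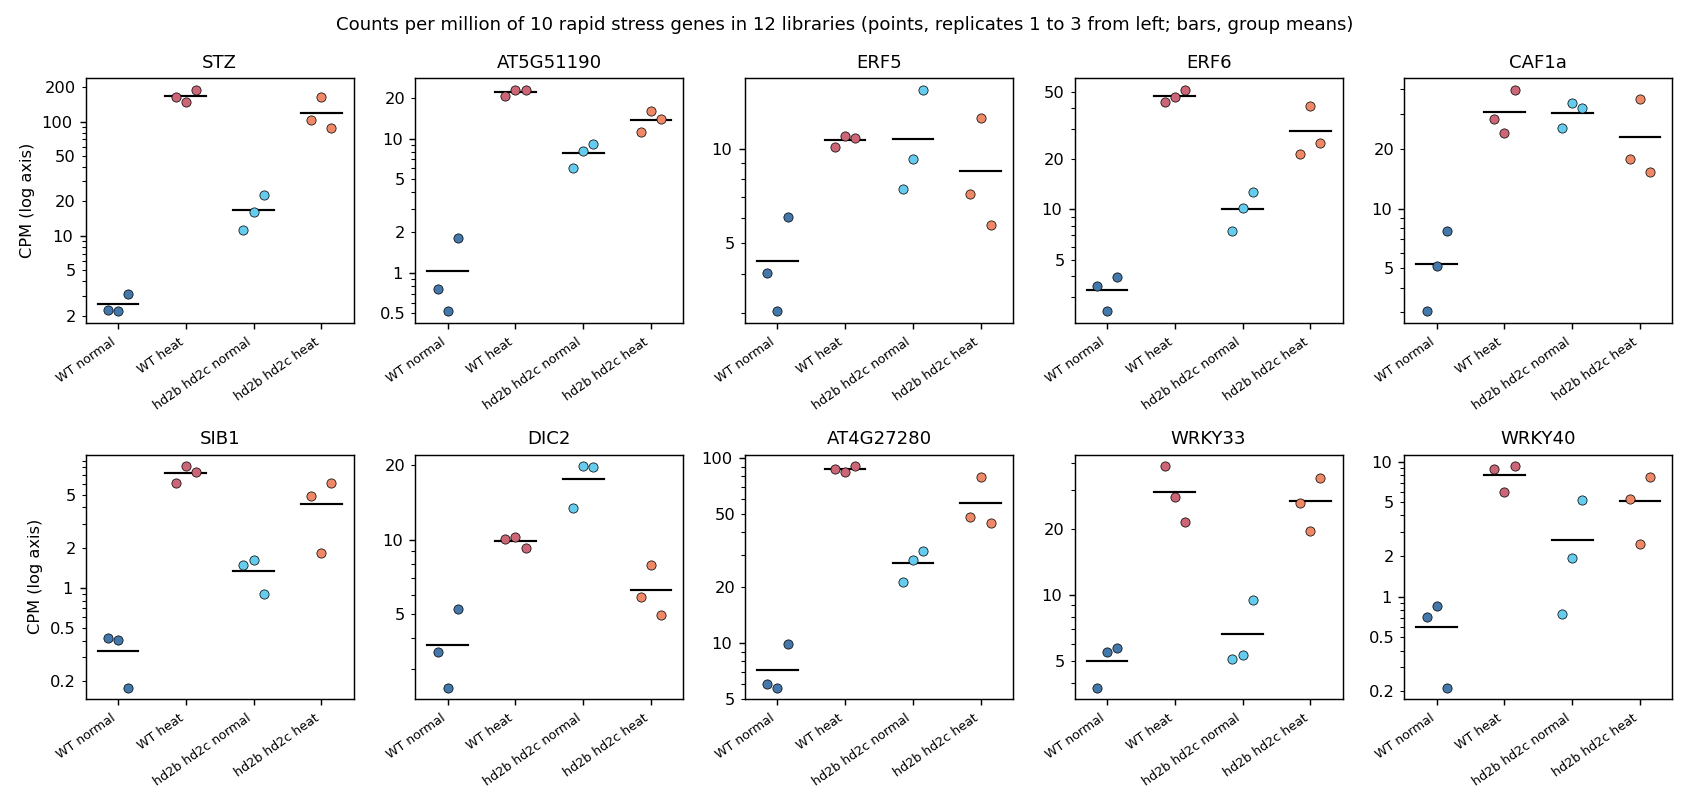
CPM of each of the 10 genes in each library (log axis; points are replicates 1 to 3 of each group from left, bars are group means). In 8 genes every hd2b hd2c normal point lies above every WT normal point, and DIC2 is highest in hd2b hd2c normal, at 13.5 to 19.9 CPM.

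Averaged over the genotypes, 8 of the 10 genes rose with heat. This average effect is a contrast other than the interaction, but both are made of the same differences by heat in the same 12 libraries. The choice of the genes can therefore bear on its p-values. The average was tested with the quasi-likelihood test of edgeR, with Benjamini-Hochberg adjusted p over all 20232 genes. STZ rose by 4.42 (log2, SE 0.204, adjusted p 4.92e-11), SIB1 by 3.12 (SE 0.272, adjusted p 4.36e-10), ERF6 by 2.62 (SE 0.157, adjusted p 1.34e-12) and AT5G51190 by 2.59 (SE 0.186, adjusted p 1.37e-11). WRKY40 rose by 2.43 (adjusted p 5.55e-05), AT4G27280 by 2.31 (adjusted p 9.03e-11), WRKY33 by 2.30 (adjusted p 1.02e-09) and CAF1a by 1.01 (adjusted p 0.00199). ERF5 (0.38, SE 0.203, adjusted p 0.0912) and DIC2 (−0.11, SE 0.167, adjusted p 0.543) did not pass. The average joins opposite signs in CAF1a (2.56 in WT and −0.54 in hd2b hd2c), and also in ERF5 and DIC2. Of all genes tested, 34.3% rose and 40.2% fell in the same comparison, so that calls were common. The median of the 10 genes was 2.37, against −0.15 over all genes tested. Under scaling by library totals rather than TMM factors the median of all genes moved to −1.63 and that of the 10 genes was 0.88. ERF5 and CAF1a then turned to −1.12 and −0.52, and DIC2 went to −1.59.

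Within each genotype the 10 genes differed in how far they followed heat. In WT all 10 were called higher after heat, with a median of 3.69 and a range from 1.26 (ERF5) to 6.05 (STZ), while 31.0% of all genes tested were called higher. In hd2b hd2c 6 of 10 were called higher and 1, DIC2, was called lower, with a median of 1.06, and 29.9% and 31.5% of all genes tested were called higher and lower. The WT heat libraries were all above the WT normal libraries for 10 of 10 genes (33.1% of all genes tested). In hd2b hd2c the same held for 6 of 10 genes (30.5% of all), DIC2 was fully below (35.8% of all), and ERF5, CAF1a and WRKY40 overlapped. Without hd2b hd2c heat replicate 2, the 2 remaining heated libraries were fully above for 7 genes and fully below for 3 (35.8% and 40.5% of all). In a fit without that library 6 of the 10 were called higher and 3 lower, beside 6075 and 6387 of all 20614 genes tested. With upper-quartile factors the calls were 5 higher and 3 lower, beside 4752 and 8258 of all 20232 genes. With library totals they were 1 higher and 5 lower, beside 969 and 15816 of all 20232. Nothing is read from these counts, since the genes were listed for this contrast, and the differences by heat and by genotype share their libraries. With library totals the WT values of ERF5 and DIC2 turned to −0.26 and −0.15, and in hd2b hd2c AT5G51190, ERF6, AT4G27280 and WRKY40 turned to −0.69, −0.072, −0.51 and −0.37, beside medians over all genes of −1.67 and −1.56.

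**Figure D2:**
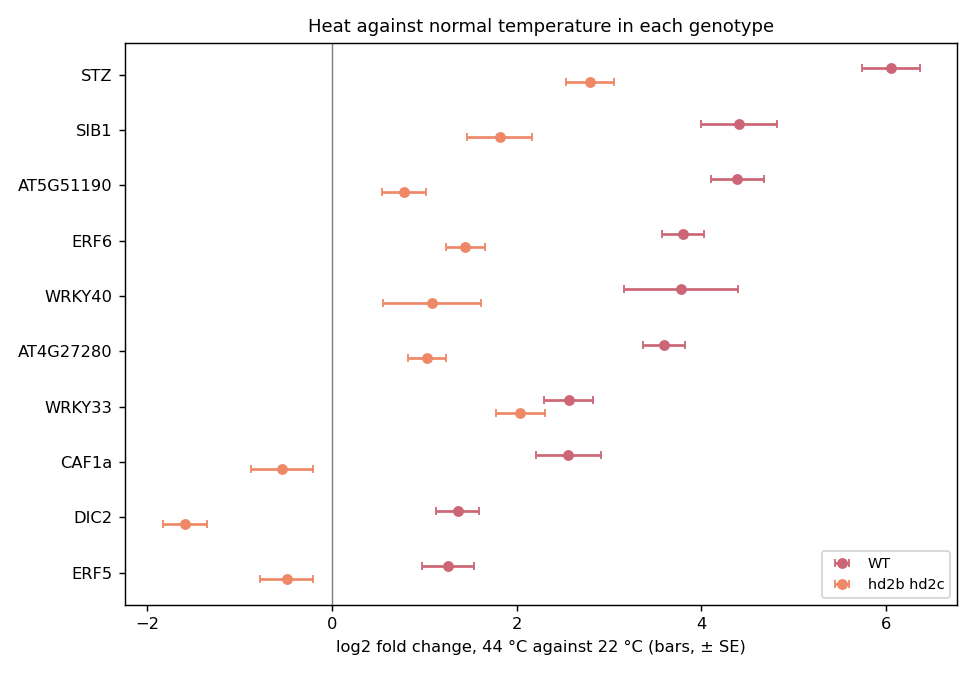
Log2 fold change with heat (44 °C against 22 °C, horizontal axis) of each of the 10 genes in WT and in hd2b hd2c (points, with bars of ± 1 SE). For all 10 genes the hd2b hd2c point lies to the left of the WT point, nearest to it for WRKY33 (2.04 and 2.57), and for DIC2 the points lie on opposite sides of 0 (−1.59 and 1.36).

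Averaged over the temperatures, 5 of the 10 genes were higher in hd2b hd2c and 0 were lower (7 and 0 at an unadjusted p under 0.05, and 5 and 0 with DESeq2). STZ rose by 1.10 (log2, SE 0.190, adjusted p 0.00358), AT5G51190 by 1.06 (SE 0.185, adjusted p 0.000989), CAF1a by 0.995 (SE 0.241, adjusted p 0.0285), DIC2 by 0.73 (SE 0.167, adjusted p 0.00959) and AT4G27280 by 0.62 (SE 0.147, adjusted p 0.0164), by the same test. Of all genes tested, 2.82% passed as higher and 3.37% as lower with edgeR. DESeq2 called 799 higher and 983 lower of all 20232, and no count over all genes was made at an unadjusted p. ERF5 (0.40, adjusted p 0.268), ERF6 (0.41, adjusted p 0.123), SIB1 (0.68, adjusted p 0.149), WRKY33 (0.17, adjusted p 0.659) and WRKY40 (0.85, adjusted p 0.251) did not pass. The median of the 10 genes was 0.70, against 0.0095 over all genes. This average is made of the same differences by genotype as the interaction for which the genes were listed. The SEs of those differences were not equal, so the choice of the genes can bear on the average and its p-values. The CAF1a call was lost without any of WT normal replicate 2, WT heat replicates 1 and 2 and hd2b hd2c normal replicates 2 and 3 (adjusted p at most 0.0674), and that of AT4G27280 without WT normal replicate 1 (adjusted p 0.0525). SIB1 passed without hd2b hd2c heat replicate 2 (0.80, adjusted p 0.0394).

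The average hides opposite signs at the separate temperatures. At normal temperature 8 of the 10 genes were called higher in hd2b hd2c (0.979% of all genes tested), with a median difference of 2.09 and a range from 0.43 (WRKY33) to 2.87 (AT5G51190). For the same 8 genes all hd2b hd2c normal libraries were above all WT normal libraries (11.7% of all genes tested), and WRKY33 and WRKY40 overlapped. After heat all 10 differences were below 0, from −0.09 (WRKY33) to −0.77 (ERF6), with a median of −0.59, and 1 gene, ERF6, was called lower (1.18% of all genes tested). With DESeq2 size factors, upper-quartile factors, library totals or a replicate block 0 of the 10 were called lower, as in 8 of the 12 fits that left out a library. The DESeq2 test called 1 lower, beside 446 of all 20232 genes. With no filter edgeR called 3 lower, beside 392 of all 25757 genes. The hd2b hd2c heat libraries were all below the WT heat libraries for 5 genes, namely AT5G51190, ERF6, SIB1, DIC2 and AT4G27280 (8.66% of all genes tested). Both comparisons belong to the contrast the genes were listed for, and nothing is read from the counts. The interaction ranged from −3.61 to −0.52 with a median of −2.65. In it 7 of the 10 were called lower (0.188% of all genes tested), all but ERF5, WRKY33 and WRKY40. The genes were listed for this contrast, so nothing is read from this count either.

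**Figure D3:**
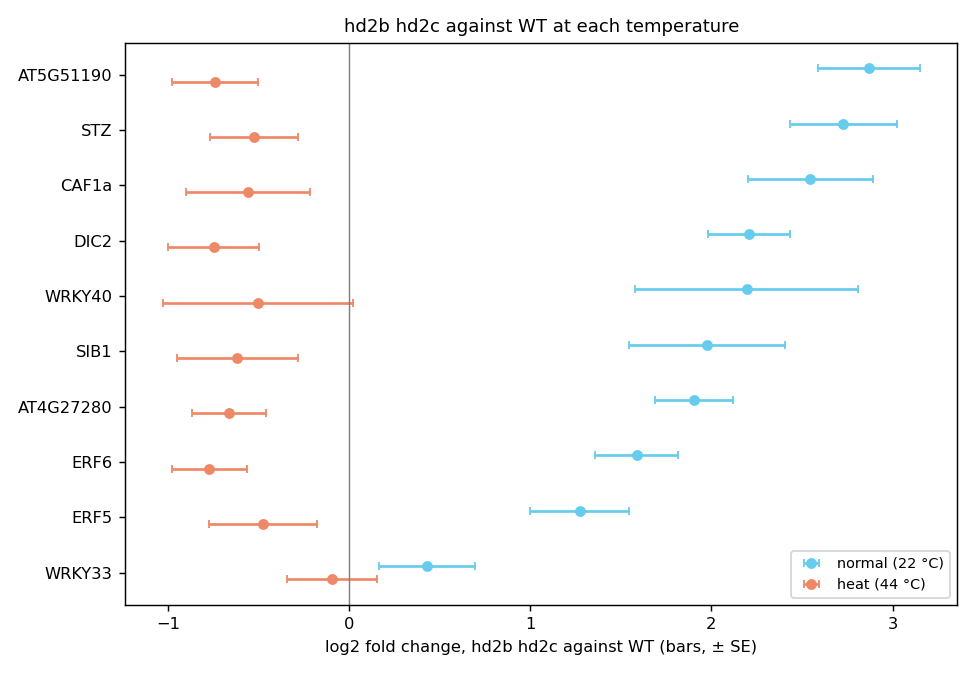
Log2 fold change of hd2b hd2c against WT for each of the 10 genes at normal temperature and after heat (bars, ± 1 SE). The values at normal temperature run from 0.43 to 2.87 and those after heat from −0.77 to −0.09.

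The library hd2b hd2c heat replicate 2 bore on the differences after heat. It was the highest of its group for 7 of the 10 genes and the lowest for the other 3, SIB1, WRKY33 and WRKY40. Without it the median difference after heat went from −0.59 to −0.81, 5 of the 10 genes rather than 1 were called lower, and WRKY33 went from −0.09 to 0.051. Over all genes tested, the genes called lower after heat then numbered 703 rather than 238. The hd2b hd2c heat libraries were then all below the WT heat libraries for 8 of the 10 genes, and for 16.9% of all genes. The median interaction of the 10 genes was −2.72 without it, and 8 rather than 7 were called. Over all genes tested, those called lower in the interaction went from 38 to 167. Nothing is read from the counts of the 10 genes, since they were listed for the interaction, of which the difference after heat is a part. The unheated groups also had an order among libraries. In hd2b hd2c normal, replicate 1 was the lowest for 9 of the 10 genes and replicate 3 the highest for 7, and in WT normal replicate 3 was the highest for 8. The biological coefficient of variation had a median of 21.4% over the 10 genes and 15.4% over all genes tested, and that of WRKY40, at 46.3%, was at percentile 97.6 of all genes.

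Levels can be compared between the genes per kilobase of annotated exon. In WT normal they ran from 0.233 CPM per kb for SIB1 to 5.96 CPM per kb for AT4G27280, and in WT heat from 5.04 for SIB1 to 129 for STZ, with AT4G27280 next at 72.5 CPM per kb. In hd2b hd2c normal CAF1a (22.8 CPM per kb) and AT4G27280 (22.4 CPM per kb) were highest, followed by DIC2 (14.8 CPM per kb) and STZ (12.8 CPM per kb). The genes thus reached different shares of the WT heat level without heat. As a share of the WT heat mean, the hd2b hd2c normal mean was 9.97% for STZ, 18.4% for SIB1, 21.5% for ERF6, 22.7% for WRKY33, 30.9% for AT4G27280, 33.0% for WRKY40, 34.7% for AT5G51190, 99.0% for CAF1a, 101% for ERF5 and 179% for DIC2. After heat the hd2b hd2c means lay closer together, at 58.9% (SIB1) to 91.0% (WRKY33) of the WT heat means. These means include hd2b hd2c heat replicate 2. Without it the log2 differences from WT after heat ran from −1.02 (ERF6) to 0.051 (WRKY33), rather than from −0.77 (ERF6) to −0.09 (WRKY33). For DIC2 all hd2b hd2c normal libraries were above all WT heat libraries, and for ERF5 and CAF1a these groups overlapped. In the other genes the hd2b hd2c normal libraries were all below. No share over all genes was computed for this comparison, and nothing is read from it.

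Relatives and pathway partners of the 10 genes were followed in 10 further lists of 112 genes, of which 98 passed the filter. In the interaction 8 of the 98 (8.16%) passed as lower and 0 as higher, against 0.188% and 0.148% of all genes tested, by edgeR's quasi-likelihood test with adjustment over all genes. At an unadjusted p under 0.05 there were 27 lower and 1 higher, and no count over all genes was made at that p. DESeq2 called 9 lower and 0 higher, beside 81 lower and 126 higher of all 20232 genes tested. The median of the 98 was −0.25, against 0.012 over all genes tested. In the average heat effect 43 of the 98 rose and 25 fell, against 34.3% and 40.2% of all genes tested. Of 13 kinase and CAMTA genes 9 rose and 1 fell, and of 9 C2H2 zinc finger factors like STZ 6 rose and 1 fell. Of 19 stress WRKY factors 3 rose and 7 fell, and of 9 group IX factors 6 rose and 3 fell. At normal temperature 13 of the 98 were higher in hd2b hd2c and 0 were lower (0.979% and 1.67% of all genes tested). After heat 2 were higher (CBF2 and CBF3) and 1 was lower (ERF15), against 1.59% and 1.18% of all genes tested. These lists were made with earlier results of the libraries known.

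In the lists of relatives, 4 genes passed in the interaction. ERF104, a group IX factor like ERF5 and ERF6 and a substrate of the kinase MPK6, stood at 14.6 ± 1.51 CPM in WT normal, 27.7 ± 2.50 in WT heat, 24.7 ± 3.41 in hd2b hd2c normal and 20.0 ± 1.35 in hd2b hd2c heat (mean ± SD, n = 3), an interaction of −1.25 (SE 0.201, adjusted p 0.00443). CAF1b, the closest relative of CAF1a, went from 3.28 ± 0.604 to 15.1 ± 2.45 CPM with heat in WT and from 6.32 ± 0.921 to 10.6 ± 4.16 CPM in hd2b hd2c, an interaction of −1.54 (SE 0.338, adjusted p 0.0466). DIC1, the sister carrier of DIC2, went from 10.8 ± 1.64 to 15.5 ± 0.628 CPM in WT and from 20.4 ± 1.38 to 13.8 ± 2.85 CPM in hd2b hd2c, the same crossing as DIC2, with an interaction of −1.04 (SE 0.231, adjusted p 0.0499). WRKY70, a regulator that favours salicylic acid over jasmonate responses, went from 1.31 ± 0.410 to 4.75 ± 1.25 CPM in WT but stood at 6.62 ± 1.13 and 6.35 ± 1.11 CPM in hd2b hd2c, an interaction of −1.92 (SE 0.396, adjusted p 0.0284). The other 8 tested group IX factors, 18 stress WRKY factors, 8 deadenylase genes and 3 mitochondrial carriers did not pass with edgeR. DESeq2 called 1 of these, ERF2, lower.

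Among 16 other rapid stress genes, 4 passed as lower in the interaction. CBF2, a cold-response factor, stood at 1.25 ± 0.273 CPM in WT normal, 75.1 ± 15.8 in WT heat, 6.14 ± 0.768 in hd2b hd2c normal and 120 ± 16.0 in hd2b hd2c heat. Its interaction was −1.65 (SE 0.253, adjusted p 0.00252), yet it remained higher in hd2b hd2c after heat (0.66, adjusted p 0.0161), unlike the 10 genes, whose differences after heat were below 0. CBF2 has similar neighbouring copies, CBF1 and CBF3, and reads shared by the copies are uncertain. ACS6, an enzyme of ethylene synthesis, went from 10.8 ± 0.723 to 105 ± 12.9 CPM in WT and from 31.2 ± 11.9 to 110 ± 7.36 CPM in hd2b hd2c (interaction −1.46, SE 0.267, adjusted p 0.0171). RAV2, a repressor of flowering, had an interaction of −1.31 (SE 0.223, adjusted p 0.00818), and ATL2, a membrane ubiquitin ligase induced by chitin, had an interaction of −1.45 (SE 0.266, adjusted p 0.0149). ATL2 stood at 11.5 ± 0.560 and 11.8 ± 3.13 CPM in WT normal and heat and at 21.1 ± 1.65 and 8.18 ± 1.54 CPM in hd2b hd2c.

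With library totals in place of the TMM scaling 0 of these 8 genes passed, although their values stayed below 0 (from −1.82 for WRKY70 to −0.95 for DIC1). ERF104 and CBF2 passed in each of the 12 fits that left out a library. RAV2 failed in 1 of the 12, without WT normal replicate 2 (adjusted p 0.0507), ATL2 in 4, ACS6 in 5, WRKY70 in 6, DIC1 in 10 and CAF1b in 11. The number of list genes called lower ranged from 2 without WT normal replicate 2 to 14 without hd2b hd2c heat replicate 2.

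Upstream, 0 of 13 tested kinase and CAMTA genes passed in the interaction with edgeR (1 higher and 2 lower at an unadjusted p under 0.05) and 0 with DESeq2, with values from −1.14 (MKK9, adjusted p 0.091) to 0.46 (CAMTA2, adjusted p 0.393). MPK3 and MPK6, the kinases that act on WRKY33, ERF6 and ERF104, had interactions of −0.31 (SE 0.175) and −0.07 (SE 0.151). In the average genotype effect 1 of the 13 passed, CAMTA3, a factor that binds the rapid stress element and holds down defence genes, which fell by 0.72 (SE 0.159, adjusted p 0.00767). In the interaction 0 of 13 VQ motif genes, 0 of 9 C2H2 zinc finger factors, 0 of 2 EF-hand relatives of AT4G27280 and 0 of 4 camalexin genes passed with edgeR or with DESeq2. At an unadjusted p under 0.05 edgeR had 0, 3, 2 and 1 of these lists' genes lower and 0 higher. A p that misses the threshold does not show that the heat effects were equal. The camalexin enzyme PAD3, made under WRKY33 control, had an interaction of −0.999 (SE 0.722, adjusted p 0.73). CAMTA3, CAMTA2, the kinases, PAD3, ERF2, ERF15 and CBF3 are named after their values were seen.

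**Figure D4:**
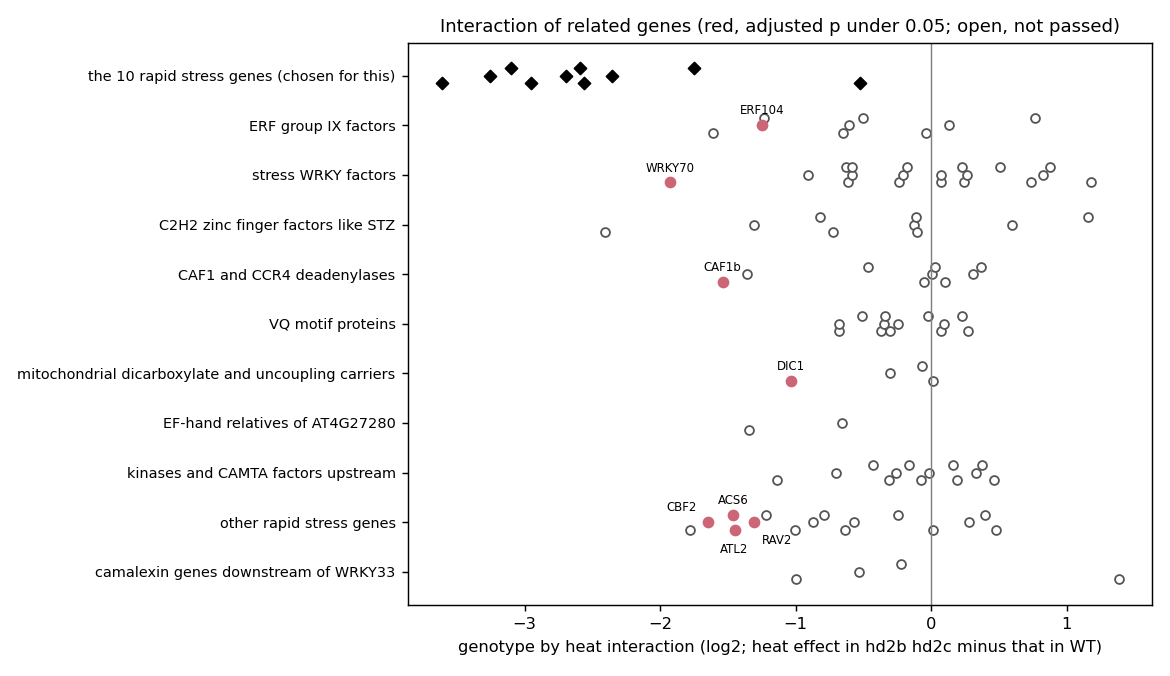
Genotype by heat interaction (log2, heat effect in hd2b hd2c minus that in WT) of the 10 rapid stress genes, as diamonds and with no test, and of the 98 tested genes of the related lists. Filled circles are the 8 genes with an adjusted p under 0.05, from −1.92 (WRKY70) to −1.04 (DIC1), and open circles did not pass.

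The 10 genes were similar, but not equal, in profile over the 12 libraries. The Pearson correlation of each gene's log2 CPM with the mean of the others ran from 0.533 for DIC2 and 0.778 for WRKY33 to 0.985 for AT4G27280 and 0.987 for AT5G51190, as a description over libraries that share groups, depth and scaling. The genes outside the 10 whose profile was most like the mean profile of the 10 were AT1G22910 (r 0.977), AT2G27080 (0.962), MYB77 (0.961), GA2OX2 (0.958), RTFL12 (0.956) and AT1G73120 (0.955), each over 12 libraries. MYB77 encodes a MYB factor and GA2OX2 an enzyme that inactivates gibberellin. MYB77 stood at 3.57 ± 0.784 CPM in WT normal, 23.3 ± 2.72 in WT heat, 9.14 ± 2.68 in hd2b hd2c normal and 20.1 ± 3.59 in hd2b hd2c heat (mean ± SD, n = 3), the order seen for STZ and AT4G27280. Under scaling by library totals the correlation stayed at 0.940 for MYB77 and 0.915 for RTFL12 and was 0.107 for AT1G22910 and 0.436 for AT2G27080.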

How the data were processed

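RNA sequencing of 12 libraries was analysed. Per the labels, total RNA was isolated with Trizol and libraries were made with an Abclonal RNA-seq kit. Per the submitters' processing notes, which name the TAIR10 build, HISAT2 2.1.0 and featureCounts 2.0.3, the authors deposited raw read counts per gene, which were not normalised. Its strand and multi-mapping settings were not found (not given in the sources used here). The labels do not tie replicates to separate cultures, and the p-values then measure only the spread between libraries, which may be technical.

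Counts of all 33330 features were analysed with edgeR 4.0.16 (R 4.3.3). Genes were kept by filterByExpr (minimum count 10, minimum total 15), which left 20232. CPM use TMM-scaled library sizes. A robust quasi-likelihood fit of the 4 groups gave all comparisons, two-sided, with Benjamini-Hochberg adjustment over all genes tested and a threshold of 0.05. Each SE was derived from the F statistic, as the size of the log2 change over the root of F. "Rose" and "fell" mark genes that passed. The script was tested on simulated counts.

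The 10 genes and the related lists were chosen with earlier results of these data known. Other named genes are up to 4 called in the interaction per list, by smallest adjusted p, the 6 other genes with the highest correlation with the mean profile of z-scored log2 CPM (prior count 2), HD2B, HD2C and tissue markers. Promoters, exon lengths and overlaps come from TAIR10.1 (RefSeq), joined by locus identifier, since the count table has no coordinates. Alternatives were 3 other scalings, DESeq2 1.42.0, no filter, a replicate block and leaving out each library. The labels number replicates alike in each group, but of 18 correlations between same-numbered libraries' deviations (−0.132 to 0.146) 1 was over 0.1, so the numbers were not taken to pair libraries. No pair of replicates agreed within sampling noise (chi-square per gene at least 7.88).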

Additional observations from a re-analysis of the deposited data

Results flagged for a closer look

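In 8 genes of the related lists the heat effect differed between hd2b hd2c and WT by the test of the interaction, with log2 differences of −1.25 for ERF104, −1.92 for WRKY70, −1.54 for CAF1b, −1.04 for DIC1, −1.65 for CBF2, −1.31 for RAV2, −1.45 for ATL2 and −1.46 for ACS6. These lists were made with earlier results of the libraries known, and with library totals 0 of the 8 passed. Among the 12 fits that left out a library, CAF1b failed in 11, DIC1 in 10, WRKY70 in 6, ACS6 in 5, ATL2 in 4 and RAV2 in 1. ERF104 and CBF2 passed in all of them. For DIC2 every heat library lay above every normal library in WT and below every normal library in hd2b hd2c, a log2 difference of −2.95, which was not tested because the gene was listed for this contrast.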

How the results depend on the processing

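TMM factors ran from 1.62 to 1.86 in the normal libraries and from 0.424 to 0.744 in the heat libraries. Scaling by library totals instead of TMM factors moved the median average heat effect of all genes to −1.63. The median of the 10 genes then was 0.88 in the average heat effect, 2.16 for heat in WT and −0.44 for heat in hd2b hd2c. Under library totals ERF5 was at −1.12 (adjusted p 8.67e-05) and CAF1a at −0.52 (adjusted p 0.015) in the average heat effect. DIC2 was at −1.59 in it (adjusted p 2.78e-07, all by edgeR). For heat in WT ERF5 was at −0.26 and DIC2 at −0.15. For heat in hd2b hd2c AT5G51190 was at −0.69, ERF6 at −0.072, AT4G27280 at −0.51 and WRKY40 at −0.37. Genes called among all tested then numbered 283 in the average genotype effect, 102 for genotype at normal temperature, 53 after heat and 10 in the interaction, where 0 of the related list genes were called lower by edgeR (27 at an unadjusted p with TMM factors, 9 by DESeq2). The main counts were 1253, 536, 559, 68 and 8. The interaction had 207 calls with DESeq2 and 180 with no filter, and genotype after heat 985 with DESeq2 and 851 with no filter. A replicate block was also fitted with edgeR, although the numbers were not taken to pair the libraries. With it genotype after heat had 340 calls and the interaction 47, in which CAF1b and DIC1 did not pass (adjusted p 0.0785 and 0.091). With the block the 10 genes kept 8 heat and 5 genotype calls in the average effects. Leaving out each library in turn, calls ranged from 773 to 2118 for the average genotype effect, 216 to 1061 for genotype at normal temperature, 152 to 1435 after heat, 16 to 339 in the interaction and 2 to 14 for related list genes called lower. With upper-quartile factors 35.7% rather than 46.0% of heat calls were higher (6.55% with library totals), and DIC2 passed as lower with heat (−0.37, adjusted p 0.0492). The share of higher calls also moved by over 10 points in the average genotype effect (45.6% to 69.6%), for genotype at normal temperature (36.9% to 72.5%), after heat (57.4% to 73.6%) and in the interaction (44.1% to 20.0%) with library totals. In the interaction that share was 60.9% with DESeq2 and 31.9% with the block. Leaving out a library, it ran from 23.8% to 50.7% in the interaction. For genotype at normal temperature it then ran from 35.2% to 50.9%, and after heat from 46.3% to 65.1%. CAF1a lost its average genotype call with no filter (adjusted p 0.0896). ERF5 passed in the average heat effect without WT normal replicate 3, hd2b hd2c normal replicate 3 or hd2b hd2c heat replicate 3 (adjusted p from 0.013 to 0.04). The cause of these changes was not tested. Genes of few counts, such as SIB1 and WRKY40 in WT normal, are limited by depth.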
